A study of Xenopus laevis with 9 samples.

Results

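The genes described here are the hypoxia targets and the glycolytic genes of XLK-WG cells, a line from the kidney of the frog Xenopus laevis. They were chosen by gene symbol alone, ignoring the suffixes .L and .S that mark the 2 copies many genes have in this species, and the rule itself uses no measured value. The rule found 55 genes of the 7531 named on the array, or 40 with both copies of a gene counted as 1, measured by 72 of its 15491 probe sets. A probe set is the group of short oligonucleotides that measures a transcript. The study exposed cells to 100 nM FICZ, 100 nM TCDD or the solvent DMSO alone for 3 h, with DMSO at 0.25% in all groups and 3 arrays per group. FICZ is a photoproduct of tryptophan and TCDD a dioxin, both known as ligands of the aryl hydrocarbon receptor (AHR), and the study's question is the responsiveness of these cells to each. All groups are the same cell line without genetic change in the labels, grown to near confluence, and the labels call the samples of a group biological replicates. Because the copies of a gene share much of their sequence, a reading assigned to copy .L or .S is uncertain as to the copy.

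Hypoxia-inducible factors (HIFs) are transcription factors with an oxygen-regulated alpha subunit, encoded by hif1a or epas1, and a stable partner, ARNT. In normal oxygen, prolyl hydroxylases of the egln family mark the alpha subunit for destruction, and in low oxygen it accumulates and raises genes for glucose uptake, glycolysis, lactate release and mitochondrial adjustment. AHR binds DNA with the same partner, ARNT, so a crossing of both pathways has long been studied. RNA levels of hif1a and epas1 do not report HIF activity, which is set mainly by protein stability.

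Values are log2 signals, on which a difference of 1 is a 2-fold change. Array medians lay between 6.67 and 6.87 before normalization, and precision is limited by having 3 arrays in a group. As a check of the labels, cyp1a1.L, the best known AHR target, rose with both ligands and had a log2 signal of 11.52, 11.47 and 11.41 with FICZ and of 10.37, 9.43 and 9.46 with TCDD, against 7.01, 6.32 and 6.60 with DMSO. Of the sum of squares inside the groups, DMSO replicate 2 made up 22.6% over all tested probe sets and 18.4% over the tested hypoxia and glycolysis probe sets, and some differences given below moved without it. The DMSO titles carry a tag, CH, of unstated meaning that the ligand titles lack, and whatever it marks cannot be told apart from the control group. Of the kidney epithelial markers, atp1b1, krt19, aqp2, pax2 and pax8 had a probe set above the filter on low values, whereas cdh1, epcam and lhx1 had none, and their summed linear signal was 9905 to 10297 with FICZ and 8336 to 10928 with TCDD, against 8477 to 10426 with DMSO. The summed linear signal of the endothelial and blood markers (3 of 7 probe sets tested) was 415 to 450 with FICZ and 262 to 293 with TCDD, against 244 to 284 with DMSO, with ptprc, tek and lcp1 below the filter and pecam1.L called higher with FICZ. The summed signal of the mesenchymal markers (11 of 17 probe sets tested) was 18302 to 18722 with FICZ and 17739 to 19578 with TCDD, against 18635 to 19034 with DMSO. Of its 11 tested probe sets, 10 had a negative difference with FICZ and 9 with TCDD. Of all 11618 tested probe sets, 5864 and 5750 were negative. Some of the 11 measure the same gene or its copy and all share the DMSO arrays, so they are no independent evidence. By limma sparc.S was called higher with FICZ (log2 difference 0.57, adjusted p 0.00714) and with both ligands averaged (0.43, adjusted p 0.0385). The summed signal of the muscle and nerve markers (3 of 9 tested) was 218 to 267 with FICZ and 242 to 272 with TCDD, against 248 to 317 with DMSO. Of 8 tested kidney epithelial probe sets, 2 lay lower with FICZ than with DMSO without overlap, where 5.96% of all tested did. Another 0 of 8 lay higher, where 6.28% of all did, and 0 were called by limma. The part of the kidney epithelial, endothelial, blood and mesenchymal differences in the results below was not tested.

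No probe set that the rule found passed the test in any comparison, whereas 1 of egln3.L, outside the rule, passed with both ligands averaged. Of the 72, 59 lay above the filter (a mean log2 signal of 4.88) and were tested with limma across 11618 probe sets, at a Benjamini-Hochberg adjusted p of 0.05. With FICZ against DMSO, 0 of 59 were called, where 0.603% of all tested probe sets were. With TCDD against DMSO 0 of 59 were called, where 0.0258% of all were, and with FICZ against TCDD 0 of 59, where 0.207% of all were. At such background rates a list of this length would hold few calls or none, so the count of 0 is not particular to these genes. At an unadjusted p under 0.05 limma gave 5 probe sets with FICZ against DMSO (8.47%, against 7.39% of all tested), 1 with TCDD against DMSO (1.69%, against 3.43%) and 2 with FICZ against TCDD (3.39%, against 3.08%).

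Of the oxygen-sensing genes, hif1a.L encodes the alpha subunit of the best known HIF, and both its probe sets overlapped between each ligand and DMSO. Its first probe set read 10.78, 10.81 and 10.73 with FICZ and 10.69, 10.69 and 10.71 with TCDD, against 10.65, 10.99 and 10.55 with DMSO. Its second read 9.33, 9.42 and 9.23 with FICZ and 9.15, 9.36 and 9.34 with TCDD, against 9.02, 9.68 and 9.36 with DMSO. In both, DMSO replicate 2 was the highest of all arrays and the ligand arrays lay inside the DMSO range. The log2 difference of the first was 0.04 with FICZ (95% interval -0.17 to 0.25) and -0.04 with TCDD (-0.24 to 0.17). Without DMSO replicate 2 the differences with FICZ were 0.17 for the first hif1a.L probe set and 0.14 for the second.

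The other alpha subunit gene, epas1, was measured with a wider spread. epas1.S read 6.05, 6.51 and 6.02 with FICZ and 6.15, 5.45 and 5.77 with TCDD, against 5.41, 5.84 and 5.98 with DMSO. All FICZ arrays lay above all DMSO arrays, narrowly so at the closest pair, while the TCDD arrays overlapped both. The log2 difference with FICZ was 0.45 (-0.02 to 0.92) with an adjusted p of 0.695 by limma, and it was 0.28 without DMSO replicate 1 and 0.29 without FICZ replicate 2. The tested probe set of epas1.L read 5.15, 5.77 and 4.43 with FICZ and 5.52, 5.33 and 5.05 with TCDD, against 4.51, 4.93 and 5.46 with DMSO. These groups overlap fully, and its interval with TCDD (-0.36 to 1.02) was the 1 interval among all members that reached past a 2-fold change. The other epas1.L probe set lay below the filter, between 2.92 and 4.67 over the 9 arrays.

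The tested genes of the rule for enzymes that act on the alpha subunits had overlapping arrays in every comparison. egln1.S, which encodes the main prolyl hydroxylase, read 7.73, 7.39 and 7.78 with FICZ and 7.39, 7.48 and 7.89 with TCDD, against 7.70, 7.41 and 7.58 with DMSO. hif1an.S, the asparaginyl hydroxylase gene that limits the activity of HIFs, read 5.04, 5.32 and 5.49 with FICZ and 5.72, 5.01 and 5.06 with TCDD, against 5.51, 5.05 and 5.71 with DMSO. Their log2 differences were 0.07 and -0.14 with FICZ and 0.02 and -0.16 with TCDD, all with overlapping arrays, and those of hif1an.S were -0.33 with FICZ and -0.35 with TCDD without DMSO replicate 2. hif3a, egln2 and vhl had no named probe set and were not analysed here, nor were p4ha1, ankrd37, ca9, adm and the other genes of the rule that no single-symbol probe set named.

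**Figure D1:**
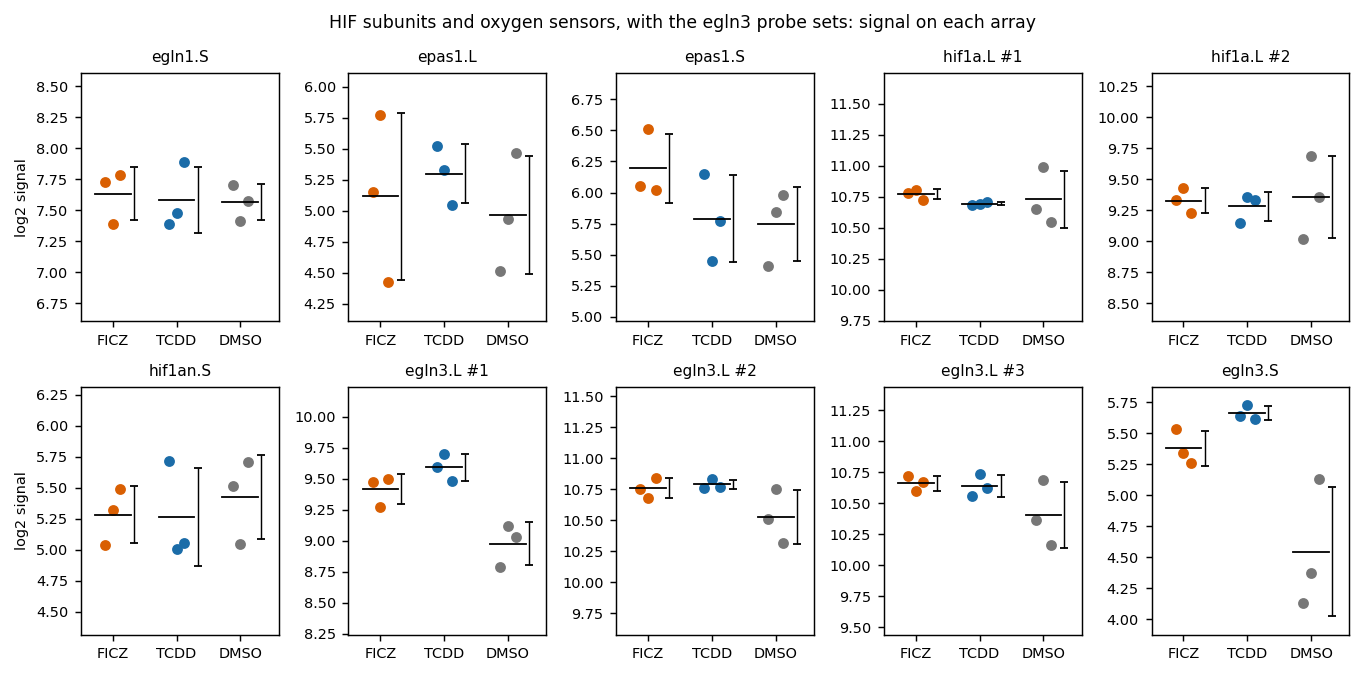
Log2 signal on each array (points) for the tested HIF subunit and oxygen sensor probe sets, with the 4 egln3 probe sets for comparison; bars are group means, whiskers are 1 SD, and each panel spans 2 log2 units. The hif1a.L, epas1.L, egln1.S and hif1an.S groups overlap between each ligand and DMSO. In epas1.S the FICZ arrays lie above the DMSO arrays and the TCDD arrays overlap both. egln3.S and the first egln3.L probe set lie higher on all 6 ligand arrays than on the DMSO arrays. The DMSO mean of egln3.S is below the filter level, and it passed only through its higher ligand arrays. Its separation is therefore no evidence of a rise.

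egln3, a further prolyl hydroxylase gene, lies outside the rule and is given beside egln1 of the same gene family. egln3 was chosen with earlier results of these data known, so its readings are no independent evidence. Its first egln3.L probe set read 9.47, 9.27 and 9.50 with FICZ and 9.59, 9.70 and 9.48 with TCDD, against 8.78, 9.12 and 9.03 with DMSO. With both ligands averaged it rose by 0.52 on the log2 scale (0.32 to 0.73), with a limma adjusted p of 0.0449. That call held in 3 of 16 alternatives and ended in the other 13, with adjusted p values up to 0.195, for example without DMSO replicate 1 (0.195), without DMSO replicate 3 (0.119) or without any 1 ligand array. The other egln3.L probe sets differed by 0.25 and 0.24 (adjusted p 0.525 and 0.656), and both passed without DMSO replicate 2 (adjusted p 0.0455 and 0.0481).

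Among the hypoxia targets, both copies of higd1a had the smallest p values with FICZ. higd1a encodes a small protein of the inner mitochondrial membrane that associates with the respiratory chain and is induced by HIF in mammals. higd1a.L read 11.55, 11.56 and 11.69 with FICZ and 11.44, 11.56 and 11.47 with TCDD, against 11.38, 11.26 and 11.39 with DMSO. Every ligand array was above every DMSO array, and the FICZ and TCDD arrays overlapped. The log2 difference was 0.26 with FICZ (SE 0.06, 0.12 to 0.40), a 1.20-fold difference, and 0.15 with TCDD (0.01 to 0.29). higd1a.L had the smallest p of all members in both comparisons with DMSO, and neither passed over all probe sets, with limma adjusted p values of 0.128 for FICZ and 0.969 for TCDD. It ranked 111 of 11618 by p with FICZ, with an unadjusted p of 0.00122, where the last probe set called had an unadjusted p of 3e-04. Without DMSO replicate 2 the difference with FICZ was 0.22, and over the 17 alternatives its adjusted p ran from 0.0662 to 0.536.

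higd1a.S read 9.41, 9.39 and 9.43 with FICZ and 9.10, 9.42 and 9.34 with TCDD, against 9.12, 9.03 and 9.35 with DMSO. The FICZ arrays were tightly grouped and all lay above the DMSO arrays, whereas TCDD replicate 1 lay inside the DMSO range. The log2 difference was 0.25 with FICZ (0.01 to 0.48, limma adjusted p 0.654) and 0.12 with TCDD (-0.11 to 0.36). Without DMSO replicate 2, the lowest array, the differences were 0.18 with FICZ and 0.06 with TCDD.

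bnip3.S, whose product marks mitochondria for removal, had the largest difference among the targets with FICZ, and its size turned on the control arrays. It read 6.47, 6.34 and 6.43 with FICZ and 6.52, 6.11 and 6.11 with TCDD, against 6.54, 5.66 and 5.72 with DMSO. DMSO replicate 1 was the highest of the 9 arrays and the other DMSO arrays the lowest. The log2 difference with FICZ was 0.44 (-0.02 to 0.90, limma adjusted p 0.699), and it was 0.73 without DMSO replicate 1, 0.28 without DMSO replicate 2 and 0.32 without DMSO replicate 3.

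For the remaining hypoxia targets, the 95% interval of the difference from DMSO included 0 with both ligands. p4ha2.L, a collagen prolyl hydroxylase gene, read 6.03, 6.41 and 6.28 with FICZ and 5.96, 5.88 and 5.98 with TCDD, against 6.09, 6.25 and 5.66 with DMSO, so that FICZ lay above TCDD without overlap and the DMSO arrays overlapped both. ddit4.S, which encodes an inhibitor of mTOR signalling, differed by 0.27 with FICZ (-0.14 to 0.68) and 0.09 with TCDD. ndrg1.L, a stress-responsive gene, differed by 0.05 and -0.02, and kdm3a.L, a histone demethylase gene, by 0.09 and -0.01, in the same order. The kdm3a.S probe sets lay between -0.10 and 0.02 in both comparisons, and without DMSO replicate 2 the second turned to 0.24 with FICZ and 0.16 with TCDD. bnip3l.L differed by 0.03 and 0.01, and mxi1.L, which encodes an antagonist of MYC, by 0.01 and -0.02. Of the 11 tested target probe sets, 9 had positive differences with FICZ and 6 with TCDD, with medians of 0.09 and 0.01, where the median over all tested probe sets was -0.00 with FICZ and 0.00 with TCDD. Of all tested probe sets 49.5% were positive with FICZ and 50.5% with TCDD. Some of the 11 measure the same gene or its copy and all share the DMSO arrays, so they are no independent evidence. Without DMSO replicate 2 bnip3l.L turned to -0.08 with FICZ.

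**Figure D2:**
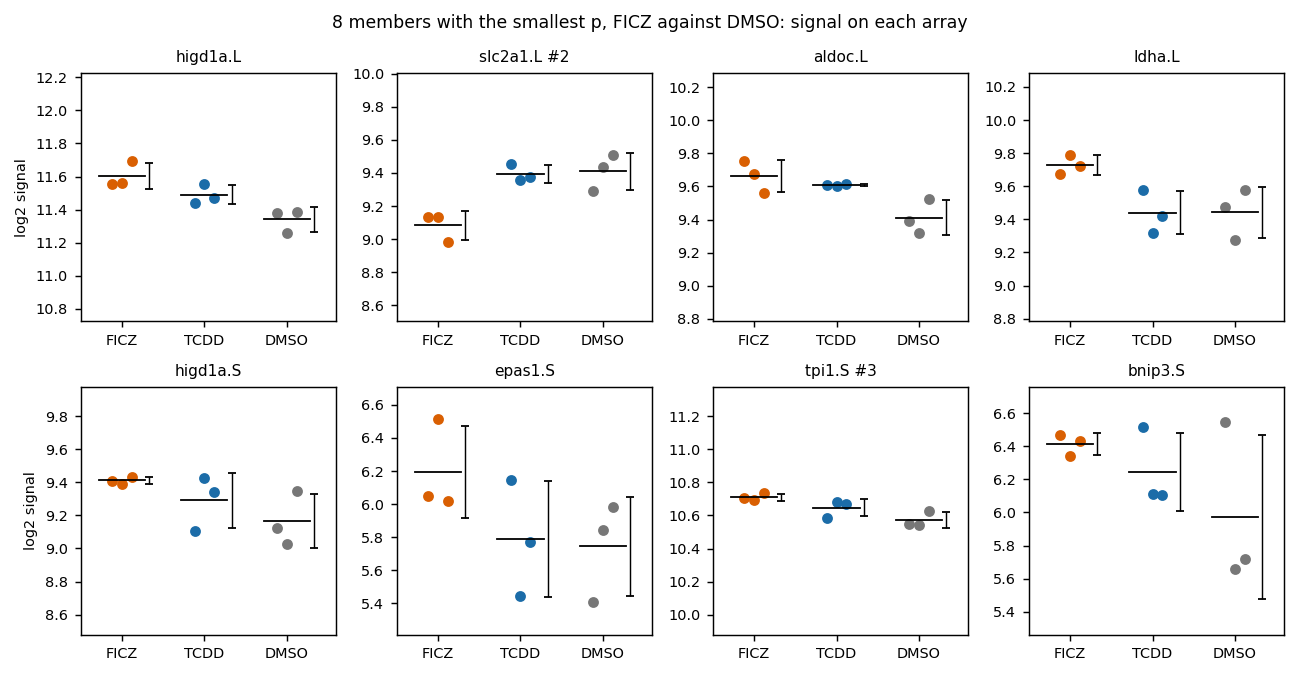
Log2 signal on each array (points) for the 8 members with the smallest p for FICZ against DMSO; bars are group means, whiskers are 1 SD, and each panel spans 1.5 log2 units. The FICZ arrays lie apart from the DMSO arrays in each panel but bnip3.S, by small distances, and none of the 8 passed the test over all probe sets.

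Glucose enters cells through the transporter encoded by slc2a1, and lactate leaves through that of slc16a3. The probe sets of slc2a1.L gave different readings, a difference that was not tested. The second read 9.13, 9.13 and 8.98 with FICZ and 9.45, 9.35 and 9.37 with TCDD, against 9.29, 9.43 and 9.51 with DMSO. All FICZ arrays lay below all others, with a log2 difference of -0.33 against DMSO (-0.53 to -0.12, limma adjusted p 0.263) and of -0.02 for TCDD against DMSO. The first read 8.78, 8.82 and 8.84 with FICZ and 8.56, 8.89 and 8.82 with TCDD, against 8.78, 9.03 and 8.73 with DMSO. Here the groups overlap, and the log2 difference with FICZ was -0.03 (-0.28 to 0.22), so the lower reading rests on 1 of 2 probe sets of the gene. slc16a3.S differed by -0.03 with FICZ (-0.44 to 0.38) and by 0.11 with TCDD (-0.30 to 0.52).

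The glycolytic enzymes were the most tightly measured group, with a median SD within groups of 0.085 over 25 tested probe sets, where all tested probe sets had 0.167. All 25 read 7.67 or higher on every array, above the array medians of 6.67 to 6.87. The part of their higher signal in the small spread was not tested. All 25 intervals lay inside a 1.5-fold change in each of the 3 comparisons between groups, where those of 8950 to 9569 of all 11618 tested probe sets did. gapdh.L, the glyceraldehyde phosphate dehydrogenase gene often used as a reference, read 12.36, 12.29 and 12.37 with FICZ and 12.50, 12.38 and 12.37 with TCDD, against 12.47, 12.27 and 12.46 with DMSO. Its log2 difference was -0.06 with FICZ (-0.18 to 0.07) and 0.02 with TCDD (-0.11 to 0.15). The enolase genes eno1.L and eno1.S differed by 0.03 and -0.00 with FICZ and by 0.04 and -0.04 with TCDD. The pyruvate kinase genes pkm.L and pkm.S differed by -0.00 and 0.07 with FICZ and by 0.06 and 0.03 with TCDD. Phosphoglycerate kinase (pgk1), both copies of phosphoglycerate mutase (pgam1) and of aldolase A (aldoa), glucose phosphate isomerase (gpi.S), hexokinase (hk1.L) and the phosphofructokinases pfkm.S, pfkp.L and pfkp.S had log2 differences between -0.09 and 0.05 with FICZ and between -0.16 and 0.07 with TCDD. The largest of these differences with TCDD was that of pfkp.L, which read 9.64, 9.58 and 9.74 with FICZ and 9.89, 9.30 and 9.44 with TCDD, against 9.74, 9.73 and 9.62 with DMSO. The TCDD arrays of pfkp.L lie on both sides of the DMSO arrays.

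The glycolytic probe sets with the smallest p values were those of aldoc.L and ldha.L. aldoc.L, which encodes the brain type of aldolase in mammals, read 9.76, 9.68 and 9.56 with FICZ and 9.61, 9.60 and 9.61 with TCDD, against 9.39, 9.32 and 9.53 with DMSO. All 6 ligand arrays lay above the DMSO arrays, with log2 differences of 0.25 with FICZ (0.06 to 0.45, limma adjusted p 0.463) and 0.20 with TCDD (-0.00 to 0.39, adjusted p 0.969). Without DMSO replicate 2 they were 0.21 and 0.15.

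ldha.L encodes the lactate dehydrogenase subunit that favours lactate formation. It read 9.67, 9.79 and 9.72 with FICZ and 9.58, 9.32 and 9.42 with TCDD, against 9.47, 9.28 and 9.58 with DMSO. The FICZ arrays lay above all others and the TCDD and DMSO arrays overlapped, with a log2 difference of 0.28 with FICZ (0.06 to 0.51, limma adjusted p 0.464) and -0.00 with TCDD. Without DMSO replicate 2 the differences of ldha.L were 0.20 with FICZ and -0.09 with TCDD. Its copy ldha.S read 11.26, 11.27 and 11.26 with FICZ and 11.33, 11.31 and 11.29 with TCDD, against 11.30, 11.07 and 11.35 with DMSO, a log2 difference of 0.02 with FICZ (-0.13 to 0.17). The difference between the copies was not tested. ldhb.L and ldhb.S, of the subunit that favours pyruvate, differed by 0.03 and 0.00 with FICZ.

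Triosephosphate isomerase had 4 tested probe sets for tpi1.S, and their log2 differences lay between 0.08 and 0.16 with FICZ and between 0.05 and 0.19 with TCDD. The third read 10.71, 10.69 and 10.73 with FICZ and 10.59, 10.68 and 10.67 with TCDD, against 10.55, 10.54 and 10.63 with DMSO. The first read 8.13, 8.37 and 8.16 with FICZ and 8.40, 8.19 and 8.15 with TCDD, against 8.29, 7.77 and 8.12 with DMSO, and the second 10.25, 10.37 and 10.32 with FICZ and 10.39, 10.30 and 10.31 with TCDD, against 10.37, 10.07 and 10.26 with DMSO. In the first and second the DMSO arrays overlap the ligand arrays and DMSO replicate 2 is the lowest of all, whereas in the third FICZ lay above all other arrays. Without DMSO replicate 2 the difference with FICZ was 0.02 for the first tpi1.S probe set, -0.01 for the second and 0.12 for the third, and with TCDD 0.04, 0.02 and 0.06 in that order. As these probe sets measure 1 gene, they are no independent evidence.

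The pfkfb genes encode enzymes that make and remove the strongest activator of phosphofructokinase. The second pfkfb3.S probe set read 8.22, 8.03 and 8.23 with FICZ and 8.31, 8.08 and 8.38 with TCDD, against 8.19, 8.67 and 8.31 with DMSO. Its highest value was DMSO replicate 2, and its log2 difference with FICZ was -0.23 (-0.53 to 0.06), beside -0.26 in the other tested pfkfb3.S probe set. Without that array they were -0.09 and -0.07. The tested pfkfb1.S probe set differed by 0.15 with FICZ (-0.12 to 0.43) and 0.00 with TCDD. The first tested pfkfb4.S probe set read 6.68, 6.68 and 6.77 with FICZ and 6.70, 6.32 and 6.38 with TCDD, against 6.54, 6.41 and 6.54 with DMSO. FICZ lay above DMSO there with a log2 difference of 0.21 (-0.09 to 0.51), and the other tested pfkfb4.S probe set differed by 0.11 with overlapping arrays and by -0.07 without DMSO replicate 2.

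Pyruvate dehydrogenase carries pyruvate into the mitochondrial citric acid cycle, and the kinases of the pdk family, among them the HIF target pdk1, switch it off. pdhb.L, of its beta subunit, read 10.53, 10.71 and 10.70 with FICZ and 10.53, 10.47 and 10.52 with TCDD, against 10.47, 10.67 and 10.72 with DMSO. pdk4.S read 5.93, 6.09 and 6.06 with FICZ and 5.79, 5.91 and 5.88 with TCDD, against 6.25, 5.83 and 6.14 with DMSO. In both, the TCDD mean was the lowest while its arrays overlapped those with DMSO, with log2 differences of -0.11 (-0.29 to 0.07) and -0.22 (-0.55 to 0.12). pdhb.S differed by 0.01 with FICZ and -0.11 with TCDD (-0.32 to 0.10), and pdk4.L by 0.09 and -0.03, in the same order. pdk1.L differed by -0.16 with FICZ (-0.38 to 0.07) and -0.03 with TCDD, and the tested pdk1.S probe set by -0.02 and 0.00. The alpha subunit genes pdha1.L and pdha1.S differed by 0.12 and 0.08 with FICZ and by 0.08 and 0.09 with TCDD, and pdhx.L, of a binding protein of the complex, by 0.14 with FICZ and 0.11 with TCDD.

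**Figure D3:**
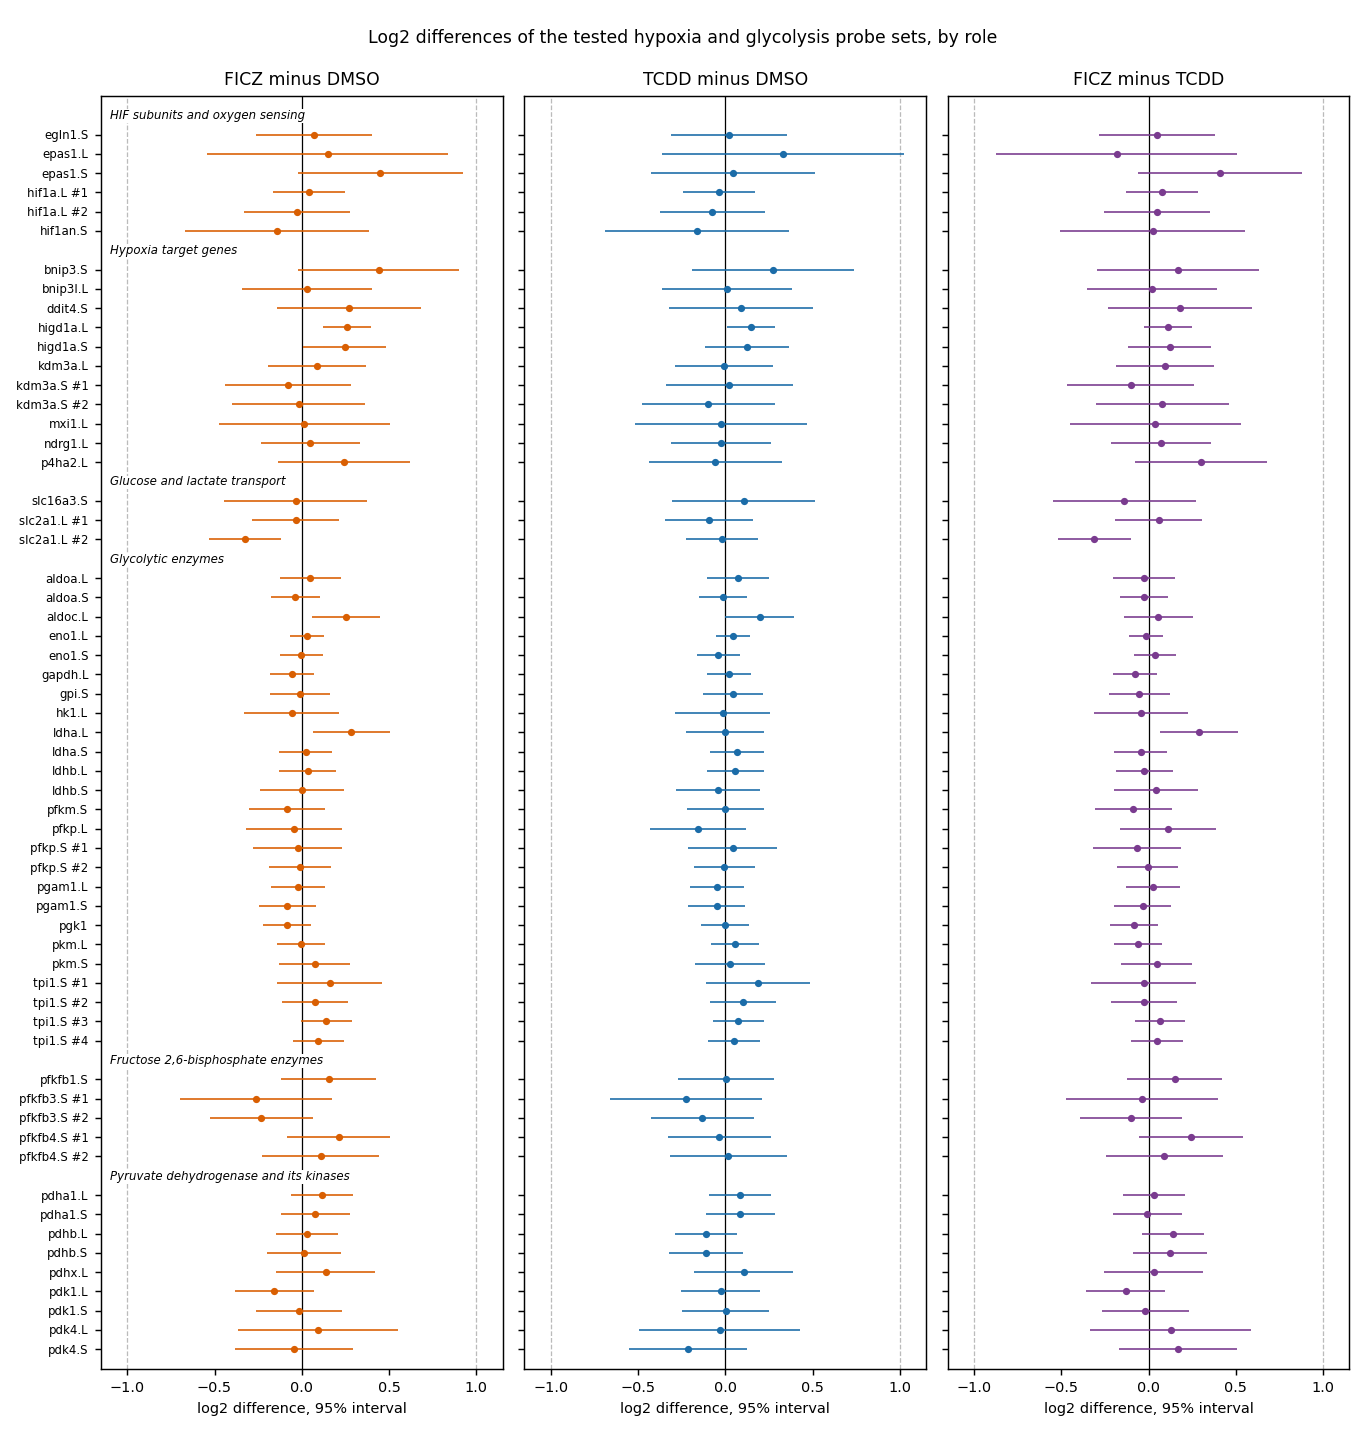
Log2 differences (points) with 95% intervals (lines) for the 59 tested probe sets, by role, in 3 comparisons; dashed lines mark a 2-fold change, and # numbers tell probe sets of 1 gene apart. All intervals lie inside a 2-fold change except that of epas1.L with TCDD, and the lines of the glycolytic enzymes are the shortest at the median.

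As a list, the 59 tested probe sets were centred close to 0. Their median log2 difference was 0.03 with FICZ, between -0.33 and 0.45, with 34 of 59 positive (57.6%), where the median of all tested probe sets was -0.00 and 49.5% were positive. With TCDD it was 0.00, between -0.22 and 0.33, with 31 of 59 positive (52.5%), where the median of all was 0.00 and 50.5% were positive. The intervals of 52 probe sets with FICZ and of 55 with TCDD lay within a 1.5-fold change in either direction, and those of 59 and 58 within a 2-fold change. Of all 11618 tested probe sets, 8950 with FICZ and 9310 with TCDD had intervals within 1.5-fold, and 11362 and 11489 within 2-fold. Most intervals on the array thus lay within these limits too. The median SE of a difference was 0.1122 for the members and 0.1392 for all tested probe sets, with either ligand. The arrays of FICZ and DMSO did not overlap in 9 of 59 (15.3%), where 12.2% of all tested probe sets were so separated. Of the 59, 8 were so separated and higher with FICZ, where 6.28% of all were, and 1 was lower, where 5.96% of all were. For TCDD and DMSO the count was 2 of 59 (3.39%), higd1a.L and aldoc.L, where it was 7.82% of all. Both, 2 of 59, were higher with TCDD, where 4.24% of all were, and 0 of 59 were lower, where 3.57% of all were. These 2 comparisons share the DMSO arrays. The spread of the 3 group means was 0.098 at the median of the members and 0.157 at the median of all tested probe sets.

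**Figure D4:**
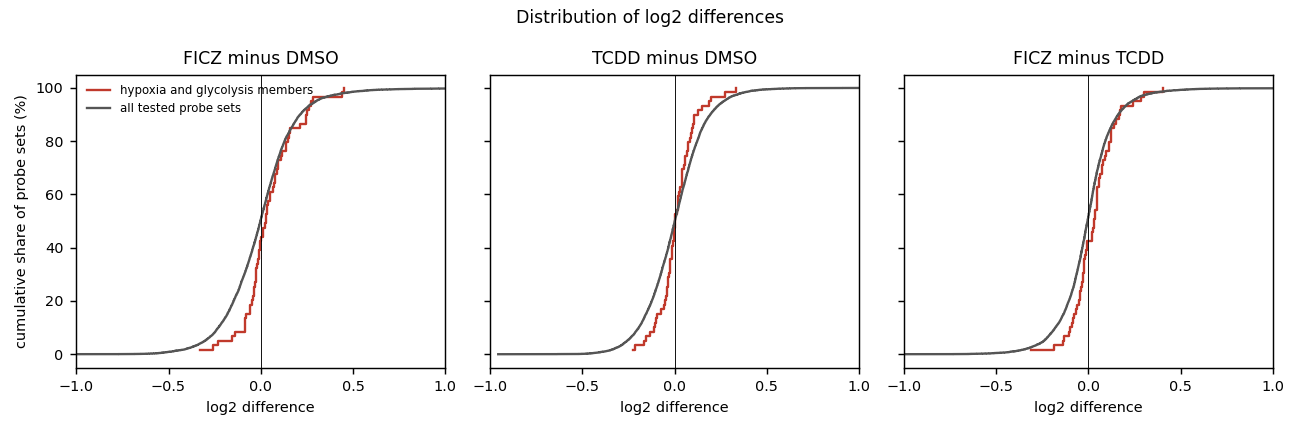
Cumulative share of probe sets (vertical axis, %) by log2 difference (horizontal axis, cut at -1 and 1) for the 59 tested members and for all 11618 tested probe sets. Both curves cross the middle close to a difference of 0, and the curve of the members spans -0.33 to 0.45 for FICZ minus DMSO.

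FICZ and TCDD were compared directly at the same dose and time, as 1 pair of compounds. None of the 59 probe sets differed by limma over all probe sets, and the intervals of 54 lay within a 1.5-fold difference and of 59 within a 2-fold one. Of all 11618 tested probe sets, 9569 and 11444 had intervals within these limits. The smallest p values belonged to the second slc2a1.L probe set, lower with FICZ by a log2 difference of -0.31 (-0.52 to -0.10, adjusted p 0.687), and to ldha.L, with a difference of 0.29 (0.06 to 0.51, adjusted p 1.00). Both also lay without overlap between the FICZ and TCDD arrays. With array weights, an alternative that gives each array its own precision, limma called both, with adjusted p values of 0.0139 and 0.01. That setting called 2 of 59 members and 355 of all 11618 tested probe sets, where the unweighted test called 24 in all. These shares are close, so the 2 calls are not particular to these genes. The setting gave TCDD replicate 3 a weight of 9.002 where the other arrays had 0.18 to 1.79. higd1a.L differed by 0.11 (-0.03 to 0.25) and epas1.S by 0.41 (-0.06 to 0.88), neither past the threshold. In all, FICZ and TCDD arrays did not overlap in 9 of 59 probe sets (15.3%), where 10.3% of all were so separated. The 5 of 59 higher with FICZ were ldha.L, the third tpi1.S probe set, the first hif1a.L probe set, p4ha2.L and pdk4.S. Of all tested probe sets 5.12% were higher. The 4 of 59 lower with FICZ were the second slc2a1.L probe set, gapdh.L, ldha.S and pgk1, where 5.14% of all were lower.

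With both ligands averaged against DMSO, 0 of 59 were called, where 0.224% of all tested probe sets were, and 2 had an unadjusted p under 0.05 by limma (3.39%, where 6.93% of all did). These were higd1a.L, with a log2 difference of 0.20 (0.09 to 0.32, adjusted p 0.339), and aldoc.L, with 0.23 (0.05 to 0.40, adjusted p 0.557). They were also the 2 whose 6 ligand arrays all lay above the DMSO arrays, a separation found in 3.00% of all tested probe sets, in 1.75% with the ligands higher and in 1.25% with the ligands lower.

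The 13 probe sets below the filter were not tested. They included the only named probe sets of 5 genes, and their levels were not shown to lie above background. vegfa.L, the gene of the vascular growth factor that is a classical HIF target, read 4.09, 4.83 and 4.68 with FICZ and 3.91, 4.32 and 4.72 with TCDD, against 4.11, 4.50 and 4.53 with DMSO. ca12.L, a carbonic anhydrase gene, ran from 0.63 to 3.65 over the 9 arrays, hk2.L, the inducible hexokinase gene, from 2.52 to 4.73, eno3.L, the muscle type of enolase, from 1.69 to 3.73, and slc16a3.L from 2.91 to 4.49. In each of these the groups overlap. The others were further probe sets of pfkfb1.S, pfkfb4.S, epas1.L, bnip3l.L and pdk1.S.

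Neighbouring pathways also gave 0 calls but for egln3, and at the shares called over all probe sets such short lists would hold few or none. Of 25 tested probe sets of other hypoxia pathway genes, 0 were called with FICZ (0.603% of all tested were) and 0 with TCDD (0.0258%). With both ligands together 1 was called (0.224% of all were), the egln3.L probe set described above. At an unadjusted p under 0.05 limma gave 6 of them with FICZ (24%, against 7.39% of all tested) and 4 with TCDD (16%, against 3.43%), all higher. Those with FICZ were 3 probe sets of egln3.L and those of egln3.S, hmox1.L and hmox1.S. Those with TCDD were 2 of egln3.L and those of egln3.S and hmox1.L. All belong to egln3 or hmox1, so these shares count the same genes repeatedly and the probe sets are no independent evidence. egln3.S differed by 0.83 with FICZ (limma adjusted p 0.259) and 1.12 with TCDD (adjusted p 0.719), from a DMSO mean of 4.55 that lies below the filter level. It passed the filter only through its higher ligand arrays, so its place in the counts above is no evidence of a rise. Without DMSO replicate 3 egln3.S passed by limma with FICZ (1.14, adjusted p 0.0461) and with TCDD (1.42, adjusted p 0.0466), and with array weights too (adjusted p 0.0303 and 0.011). These were 2 of 16 alternatives, and the limit set by the filter holds for them as well. With the filter at the 50th percentile egln3.S was not tested. hmox1.L, the gene of the heme-degrading oxygenase, differed by 0.56 with FICZ (adjusted p 0.259) and 0.43 with TCDD (adjusted p 0.969). Of the pentose phosphate pathway 0 of 6 tested probe sets were called in any of the 4 comparisons by limma. Of gluconeogenesis and glycogen genes 0 of 9 were, and of the citric acid cycle and pyruvate entry 0 of 37. The called share of all tested probe sets ran from 0.0258% to 0.603% over these comparisons. A probe set of pgd.L, a dehydrogenase gene of the pentose phosphate pathway, differed by 0.26 with FICZ (limma adjusted p 0.584). idh1.L differed by -0.34 with FICZ (adjusted p 0.654) and mdh2.L, a malate dehydrogenase gene, by 0.17 with TCDD (adjusted p 0.969).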

How the data were processed

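Total RNA of 9 samples was measured on 1-colour Affymetrix arrays after biotin labelling. The deposited values are a log2 signal per probe set with a floor of 0, made by the authors with GCOS, per the submitters' processing notes, with no version, algorithm or scaling target given in the sources used here. Base 2 was inferred, because the highest value, 13.627, is then a linear signal of 12651. Of 15611 probe sets 120 controls were left out. Genes were named by the platform annotation (9304 probe sets with 1 symbol, 195 with several, 5992 with none), and all 72 members matched a RefSeq gene by identifier. One probe set shared by both copies of aldoa was not used. The array medians differed by 0.2, so values were quantile normalized, and probe sets with a mean below the 25th percentile (4.88) were not tested. The model, fitted with limma 3.58.1 (R 4.3.3) to the 9 arrays at once, held 1 mean for each treatment, with a variance trend in eBayes, 6 residual degrees of freedom and 7.82 from the prior, and two-sided p values adjusted by Benjamini-Hochberg over 11618 probe sets and a threshold of 0.05. The 95% intervals are limma's and are not adjusted. Exact permutation of 3 arrays against 3 gives no p below 0.1, so the test rests on variance shared across probe sets. Each probe set was treated alone. Members are named by symbol, with values on each array for the HIF group, for those past the threshold and for the 8 smallest p values of each comparison, and up to 3 genes are named of each other list. Alternatives were other normalizations, filters, variance priors and array weights, a replicate block, the compared groups alone, and leaving out each array. Members and lists were chosen with earlier results of these data known. The procedure was also run on simulated data. It called 40.3% to 59.7% of simulated 1.5-fold changes over the 4 comparisons, and 82.1% to 94% of 2-fold ones. Each simulated comparison held 67 probe sets changed by 1.5-fold and 67 by 2-fold, with independent noise of equal spread on all arrays. The real arrays differed in spread. In the real data TCDD against DMSO gave 3 calls, the smallest with a log2 difference of 1.02. The simulated rates therefore do not tell which share of real changes the test could call. Real changes of 1.5-fold could be missed, at a rate that these simulations do not give. Tables used Python 3.11.15, pandas 2.3.3 and numpy 2.4.6, and figures matplotlib 3.10.9. Neither probe nor gene sequences were used here. The replicate numbers of the FICZ titles differ from those of their descriptions, and titles were used.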

Additional observations from a re-analysis of the deposited data

How the results depend on the processing

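The alternatives run were 17 for each of the 3 comparisons between 2 groups and 16 for both ligands against DMSO. Of the probe sets found by the rule, 0 were called under any of these, except 2 of 59 for FICZ against TCDD with array weights. That setting called 355 of all 11618 tested probe sets. With 1 array left out, their median log2 difference ran from 0.0174 to 0.054 with FICZ against DMSO, from -0.0165 to 0.041 with TCDD against DMSO, from -0.0074 to 0.0351 with FICZ against TCDD and from 0.0056 to 0.0502 with both ligands. Moves were judged against the SD between replicates of the members' median deviation, scaled to a difference of group means. This was 0.0228, and 0.0198 with both ligands. The median moved by more than this without DMSO replicate 1 with FICZ (0.054), TCDD (0.0287) and both (0.0502). Without TCDD replicate 2 it did so for TCDD against DMSO (0.041) and FICZ against TCDD (-0.0074). The count of calls over all probe sets also moved. With TCDD against DMSO it was 3, and 1 without the variance trend, 22 with array weights, and 3 to 7 when 1 array was left out. With FICZ against DMSO it was 70, and 40 without the trend, 154 with array weights, and 26 to 80 with 1 array left out. With FICZ against TCDD it was 24, and 8 without the trend, 355 with array weights, 39 when only those groups were fitted, and 11 to 41 with 1 array left out. With both ligands it was 26, and 14 without normalization, 16 without the trend, 105 with array weights, and 13 to 35 with 1 array left out. The cause of these shifts was not tested. With the replicate block the counts were 4, 88, 28 and 27 in that order, with 0 members called. The numbers were not taken to pair the samples. For same-numbered pairs the correlations of deviations from the group means were -0.14, -0.01 and -0.05 for FICZ with DMSO, 0.48, 0.27 and -0.00 for TCDD with DMSO, and -0.27, -0.06 and -0.00 for FICZ with TCDD. Pairs with different numbers ran from -0.36 to 0.25. The FICZ numbers differ between titles and descriptions, so their pairs and the block rest on the titles. These values cannot decide whether the samples were paired. With 3 arrays per group, 52 of 59 intervals with FICZ and 55 of 59 with TCDD lay within a 1.5-fold change, and in the others, such as epas1.L with TCDD (-0.36 to 1.02), a change of that size could not be told from the spread.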
